A study of Mus musculus with 12 samples.

Results

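B lymphoid precursors were taken from single-cell RNA sequencing of c-Kit+ mouse bone marrow, and 2129 of 32701 cells met the definition. A cell was counted when it held 1 or more UMI (a unique molecular identifier, which marks 1 captured RNA molecule) of at least 3 of 7 genes of the early B lineage, Vpreb1, Igll1, Vpreb3, Ebf1, Cd79a, Blnk and Lef1. Because those 7 genes chose the cells, their levels are given as a description and were not tested.

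The cells came from 12 libraries, 1 for each of 4 genotypes at T1 (2 weeks), T2 (2 months) and T3 (4 months) after injection of pIpC, a synthetic RNA that induces the Mx1 promoter. E2-KO mice carried Mx1-Cre and a floxed Ezh2 allele pair, G12D mice carried Mx1-Cre and 1 inducible NRas G12D allele, and G12D/E2-KO mice carried Mx1-Cre with both. WT mice lacked Mx1-Cre, so that in every comparison with WT the recombinase and the alleles cannot be told apart. All mice were on a C57BL/6 background and, per the labels, were injected with pIpC at 8 to 12 weeks of age, whereas the study's methods give a younger age. The cells were sampled by magnetic enrichment of c-Kit+ cells from femurs and tibias, as the labels of these libraries give it. Mx1-Cre recombines in hematopoietic stem cells, in their descendants and in other interferon-responsive tissues, so the deletion is not limited to B cells. The number of mice behind a library is not given in the sources used here, and p-values therefore refer to these libraries and not to mice. The spread between libraries is estimated by edgeR in part from all genes together.

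B cell development in the bone marrow starts from lymphoid progenitors that turn on the transcription factors E2A, Ebf1 and Pax5. The cells then rearrange the immunoglobulin heavy chain gene with the Rag1 and Rag2 recombinase while they grow in response to interleukin-7, and the rearranged chain is tested at the surface together with the surrogate light chain, made from Vpreb1, Vpreb2 and Igll1. Ezh2 is the main methyltransferase of Polycomb repressive complex 2, which silences genes by methylating histone H3, and in early B cells it is known for its part in heavy chain rearrangement, whereas NRas is a small GTPase downstream of growth factor receptors.

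The genes outside the definition with the highest ratio of marked to other cells included several known from the B lineage. Bfsp2, in the median library, was 558.5 CPM (UMIs of the gene per 1e+06 UMIs) in the marked cells and 4.21 CPM in all other cells, and Mzb1, a chaperone of immunoglobulin assembly, was 776 against 8.86 CPM. Vpreb2, the paralog of Vpreb1, was 208 against 0.269 CPM. Pax5, which holds cells in the B lineage, was 146 against 0.357 CPM, and Cd79b, the signalling partner of Cd79a, was 482 against 16.7 CPM. Pou2af1, Cplx2, Id3, Ly6d, Sdc4, Slamf6 and Il7r, the receptor chain for interleukin-7, were also among the 20 leading genes. These levels are descriptions of cells that were chosen by correlated genes.

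Most of the marked cells carried nearly the whole set of markers. All 7 were found in 771 cells (36.2%) and 6 in 777 cells (36.5%), whereas 292 cells (13.7%) held 5, 92 (4.32%) held 4 and 197 (9.25%) held 3. Cells just outside the limit, with exactly 2 markers, numbered 920. Summed over the cells with 2, 3, 4 and 5 to 7 markers, Pax5 was 0.948, 11.8, 68.2 and 189.5 CPM. The 197 cells with 3 markers thus held much less Pax5 than the rest, and their Elane level, a granulocyte protease gene, was 2568 CPM against 2808 CPM in the cells with 2 markers and 338 CPM in those with 5 to 7. B lineage genes were thus high in the 1840 cells with 5 to 7 markers, while the cells with 3 markers had low Pax5 and an Elane level near that of the cells just outside. The median depth of the cells with 3 markers was 7547 UMIs, against 9483.5 with 2 markers and 3953.5 with 5 to 7. In summed counts they thus weighed more per cell than the cells with 5 to 7. Counts of called genes with at least 4 markers are given in the last section.

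**Figure D1:**
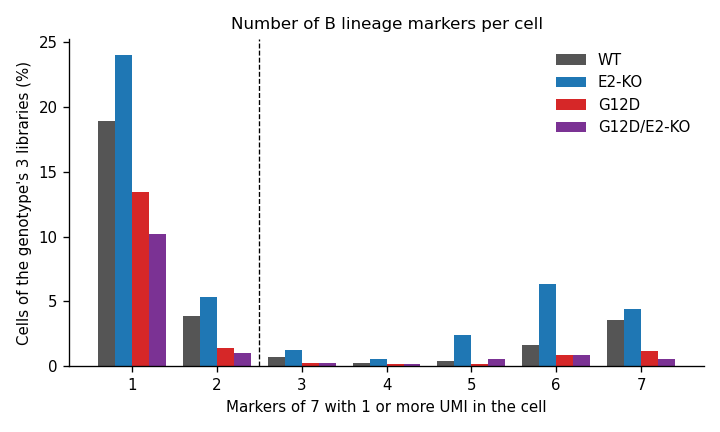
Number of the 7 B lineage markers (x axis) with 1 or more UMI per cell, as the percent of all cells of a genotype's 3 libraries (y axis, cells with 0 markers not drawn). The dashed line marks the limit of 3 markers, and in every genotype the share is lowest at 4 markers and higher again at 6, the highest of these bars being E2-KO at 6 markers.

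Genes of other cell types were present in the marked cells at different levels. The summed level of 10 granulocyte markers ran from 3087 CPM (E2-KO T3) to 30200 CPM (G12D/E2-KO T1), and none of the 10 was at 0 in all libraries. As a percent of that in the other cells of the same library, it ran from 3.7% (G12D T2) to 20.0% (G12D/E2-KO T1). The 9 erythroid markers summed to between 1079 and 11150 CPM, the 11 T and NK cell markers measured to between 20.3 and 230.0 CPM, and the 9 plasmacytoid dendritic cell markers to between 40.7 and 560.8 CPM, with Klk1 and Cd300c at 0 in all. Their part in the results was not tested, apart from a count without the 9 cells that held 3 or more T and NK or plasmacytoid dendritic markers. The 6 plasma cell markers summed to between 366 and 10050 CPM because of a few cells: 29 marked cells (1.36%) from 8 libraries, each with 65 or more UMIs of Jchain, the joining chain of secreted antibody, held 99.2% of the Jchain UMIs of all marked cells, and no other marked cell held over 2. All 29 had Cd79a, 28 had Mzb1 and 27 had Xbp1, the transcription factor of antibody secretion, but 7 had Vpreb1. These are marked cells with high Jchain and mostly no surrogate light chain, and counts without them were made as an alternative. The genes for immunoglobulin constant regions were not measured in the tables used here.

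Marked cells were shallower than the rest in each of the 11 libraries that had any. Their median depth ran from 2407 to 5215.5 UMIs per library, against 3902 to 7193 UMIs in the other cells, and the summed depth used for expression ran from 147494 to 2491103 UMIs per library. Of the 5648 cells of the G12D T1 table, 2896 (56 of them marked) had the same transcript profile as a cell of G12D/E2-KO T1 and were left out of G12D T1. The G12D/E2-KO T1 library, of 3044 cells (65 of them marked), had Ezh2 at 53.7 CPM in its marked cells and 20.2 CPM in its other cells, the lowest levels of the libraries with the deletion, whereas the cells kept in G12D T1 had 358 and 83.0 CPM. The highest similarity of any other pair of libraries was 0.856 on a scale on which cells above 0.9 were taken as the same. Xist, the RNA of the inactive X chromosome, was 1844, 1724 and 1960 CPM in the marked cells of WT, E2-KO and G12D at T3 and at most 0.461 CPM in the libraries of T1 and T2, so that T3 differed from the earlier times in this gene.

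The share of marked cells among c-Kit+ cells was highest in E2-KO. In the WT libraries of T1, T2 and T3 the values were 12.2%, 6.86% and 0.921% (6.65% ± 5.63, SD, n = 3), and in E2-KO it was 15.6%, 15.8% and 13.3% (14.9% ± 1.43, n = 3). The WT share was thus far from constant over its libraries, and the lowest E2-KO value was above the highest WT value. The T3 libraries of WT, E2-KO and G12D also differed from the earlier ones in Xist, as given above. Time and this difference cannot be told apart at T3. In G12D the share was 1.49%, 4.89% and 1.80% (2.73% ± 1.88, n = 3), while G12D/E2-KO had 2.14%, 4.38% and 0% (2.17% ± 2.19, n = 3). The largest share in a library with the NRas mutation was therefore below the WT values of T1 and T2 but above that of T3.

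**Figure D2:**
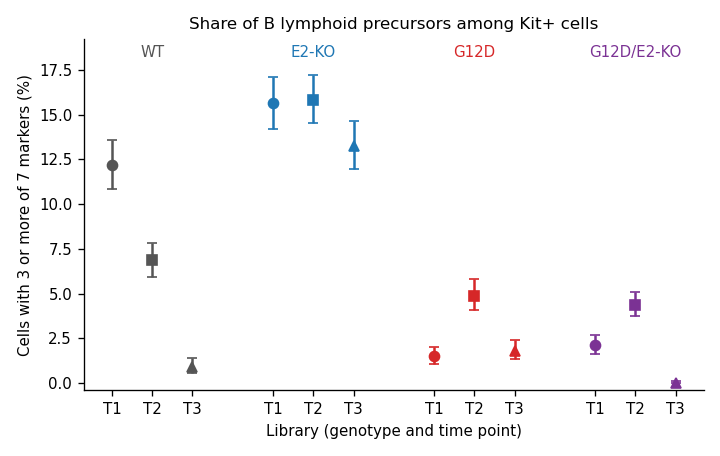
Share of marked cells (y axis, percent of the cells of a library) in the 12 libraries by genotype and time point (x axis), with exact 95% binomial intervals that cover counting error only. All E2-KO points lie between 13.3% and 15.8%, the WT points descend from 12.2% to 0.921%, and the G12D/E2-KO T3 point is at 0.

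With NRas G12D the share was lower in 5 of 6 pairs of libraries matched for time and Ezh2 state, by a mean of -2.94 on the log2 scale (SD 3.94, n = 6 pairs, exact two-sided sign-flip test p = 0.09375, adjusted p = 0.1875 over both effects). The smallest p this design allows is 0.03125. The exception was T3 of G12D against WT, with a difference of 0.96. For Ezh2 deletion the mean was -0.29 (SD 3.8, n = 6 pairs, exact p = 0.96875, adjusted p = 0.96875), with 4 of 6 pairs higher, and this mean turned to 1.15 without the empty library G12D/E2-KO T3. Without it the mean for NRas G12D was -1.45 (n = 5 pairs). In both means over 6 pairs the size of the T3 pair with this library is set by the pseudocount of 0.01 percentage point. In E2-KO against WT the differences were 0.36, 1.21 and 3.83 at T1, T2 and T3, whereas in G12D/E2-KO against G12D they were 0.52 and -0.16 at T1 and T2, and T3 gives a bound only. The difference between these effects was 0.16 and -1.36 at T1 and T2, and a test over 3 time points could not reach a p below 0.25. Neither effect passed the threshold, and with so few pairs these p-values leave little room for either to pass.

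No marked cell was found in G12D/E2-KO T3. The count was 0 of 2617 cells, which allows a share of up to 0.1146% on a floor of 3 counts, while the exact two-sided interval drawn in the plot of shares reaches 0.1409%. On the floor, and taking the share of the other library as it stands, the share was at least 8.04-fold lower than in WT T3, at least 116-fold lower than in E2-KO T3 and at least 15.7-fold lower than in G12D T3. The bound covers counting error in 1 library, and no repeat of this genotype and time was measured. This library took no part in the comparisons of expression, which rest on 11 libraries, 6 with Ezh2 intact and 5 with Ezh2 deleted.

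Within the marked cells, growth and recombination genes varied between cells and libraries. After every cell was thinned to 1400 UMIs, the share of dividing cells, those with at least 4 of 16 mitosis genes, ran from 26.2% in G12D/E2-KO T1 to 54.5% in WT T3, with a median of 41.8% over 11 libraries, against 20.5% to 29.4% in cells with 6 or more granulocyte markers. Before thinning the shares were 50.8% to 81.8%. Dntt, which adds bases at the joints of rearranged genes, was found in 43.9% to 66.7% of thinned marked cells and in 0.475% to 3.26% of granulocyte-marked cells. Rag1 was found in 9.09% to 21.8% and Il7r in 9.09% to 24.2%, against at most 0.45% of granulocyte-marked cells for each. At least 2 of 5 genes of later B cells were found in 0% to 9.09% of marked cells and in 0% to 3.92% of granulocyte-marked cells. Before thinning Dntt was found in 65.9% to 83.6% of marked cells and the later B cell genes in 2.42% to 23.9%.

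Dividing and non-dividing marked cells of the same library were also set side by side. Ezh2 was higher in the dividing cells in 11 of 11 libraries, for example 393 against 266 CPM in WT T1 and 279 against 237 CPM in G12D T2. Il7r was higher in 10 of 11, for example 144 against 98.9 CPM in WT T1 and 132 against 84.0 CPM in E2-KO T2, the exception being G12D T3 at 167 against 215 CPM. Rag1 was higher in 1 of 11, WT T3, at 80.4 against 16.5 CPM from 8 UMIs in all, and it was for example 44.2 against 52.0 CPM in WT T1. Dntt was higher in 7 of 11, with 592 against 464 CPM in WT T1. Rag1 thus stood lower in most libraries, and Ezh2 and the interleukin-7 receptor higher, where mitosis genes were present. Cdkn2a and Bmi1 were higher in the dividing cells in 5 of 5 libraries with Ezh2 deleted (in 6 and 5 of all 11), Cdkn2a at 47.5 to 94.7 CPM against 13 to 82.4 CPM. These are descriptions with no test, since the cells were split by mitosis genes of the same profiles.

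Ezh2 deletion was read from the target itself. In the marked cells Ezh2 (chromosome 6, 47530139 to 47595341, GRCm38) was 329, 272 and 298 CPM in WT at T1, T2 and T3 and 358, 255 and 284 CPM in G12D. It was 60.8, 59.0 and 76.5 CPM in E2-KO, with 53.7 and 81.6 CPM in G12D/E2-KO at T1 and T2. No library with the deletion overlapped one without it, and in the model over 11 libraries the log2 change was -2.05 (SE 0.144, edgeR quasi-likelihood adjusted p = 1.19e-12). The 3′ UMIs left do not tell a deleted transcript from an intact one. In other cells of the same libraries the values were 79.1 to 107 CPM without and 20.2 to 29.5 CPM with the deletion.

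Across the transcriptome, 235 of 7573 genes tested differed with Ezh2 deletion (3.1%), of which 168 were higher (2.22%) and 67 lower (0.885%). DESeq2 called 142, and the count was 80 without WT T1, 100 without E2-KO T1, 366 without E2-KO T2 and 77 without E2-KO T3. The model held time point and NRas state as covariates and called a gene at an adjusted p under 0.05. The contrast pools E2-KO against WT with G12D/E2-KO against G12D, and the WT side lacks Cre.

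Among the cell cycle inhibitors, Cdkn2a rose most. This gene (chromosome 4, 89274471 to 89294653, minus strand, GRCm38) encodes the kinase inhibitor Ink4a and, from another start, Arf, a regulator of Mdm2, and it is a textbook target of Polycomb silencing. The 250 bases before its 2 start sites and those before Bmi1 are shown because these genes changed with the loss of a Polycomb enzyme. They were read from RefSeq on GRCm38.p6, 5′ to 3′ on the strand of the gene, with every CG in capitals.
Cdkn2a, Arf start, chr4:89294620-89294869, minus strand: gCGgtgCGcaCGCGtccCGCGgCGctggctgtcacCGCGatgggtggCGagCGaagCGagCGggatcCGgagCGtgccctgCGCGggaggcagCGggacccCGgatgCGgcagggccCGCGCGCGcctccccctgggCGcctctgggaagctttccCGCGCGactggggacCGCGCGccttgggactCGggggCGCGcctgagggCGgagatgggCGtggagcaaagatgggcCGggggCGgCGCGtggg
Cdkn2a, Ink4a start, chr4:89282193-89282442, minus strand: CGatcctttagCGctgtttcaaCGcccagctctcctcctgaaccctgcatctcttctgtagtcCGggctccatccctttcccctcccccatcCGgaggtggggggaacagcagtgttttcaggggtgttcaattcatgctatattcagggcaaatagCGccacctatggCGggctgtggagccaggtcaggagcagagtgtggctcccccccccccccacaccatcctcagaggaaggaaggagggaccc
Bmi1, chr2:18676768-18677017, plus strand: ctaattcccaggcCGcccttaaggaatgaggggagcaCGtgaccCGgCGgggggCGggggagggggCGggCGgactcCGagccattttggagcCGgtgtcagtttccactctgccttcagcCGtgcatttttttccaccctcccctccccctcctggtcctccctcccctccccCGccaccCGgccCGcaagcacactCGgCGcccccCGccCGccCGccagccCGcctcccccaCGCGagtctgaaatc
The Arf window held 40 CG pairs and was 78.4% G and C, with more CG than 98.7% of 32851 promoters of the same length. The Ink4a window held 7 and was 60% G and C, near the median of 6, and the Bmi1 window held 21 and was 70.4% G and C. The UMIs were counted at the 3′ end of the transcript, so reads from the 2 Cdkn2a starts cannot be told apart.

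Cdkn2a was 1.04, 0.813 and 0 CPM in WT at T1, T2 and T3 (2, 1 and 0 UMIs) and 0, 1.42 and 0 CPM in G12D (0, 1 and 0 UMIs). It was 40.1, 66.2 and 86.8 CPM in E2-KO (87, 165 and 118 UMIs) and 23.9 and 46.9 CPM in G12D/E2-KO at T1 and T2 (8 and 23 UMIs). The gene was nearly silent without the deletion and present in every library with it, with a log2 difference of 5.71 (SE 0.368, edgeR adjusted p = 1.8e-13). After thinning, 4.62% to 13.4% of marked cells with the deletion and 0% to 0.35% of those without had a Cdkn2a UMI. Summed over E2-KO and WT, 370 and 3 UMIs gave a ratio of 67.8 (95% counting interval 23.0 to 330.0).

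Of the 7 cell cycle inhibitor and fetal genes tested of 11 listed, 3 rose, against 2.22% of all genes, none fell and the median log2 change was 0.24, against 0.01 over all genes. Cdkn2a, among these 3, was at most 1.42 CPM without the deletion and passed the low-count filter through the libraries with it. Its entry and its direction were thus tied. The list was also chosen with earlier results of these data known, so this count is no test of the list. Cdkn1a, the p53-responsive inhibitor, was 60.6, 60.1 and 33.9 CPM in WT and 38.3, 65.2 and 66.3 CPM in G12D. It was 100.5, 113 and 107 CPM in E2-KO, with 80.5 and 89.8 CPM in G12D/E2-KO, all above the highest value without the deletion (log2 change 0.88, SE 0.163, edgeR adjusted p = 0.00103). Cdkn1c, an imprinted inhibitor, rose by 1.73 (SE 0.472, edgeR adjusted p = 0.0327), a call that was lost with DESeq2, with the tables as deposited and with the effect averaged over both NRas states in a genotype model, and the gene was tested in 6 of 11 fits with 1 library left out.

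Bmi1, a subunit of Polycomb repressive complex 1, was the other listed Polycomb gene that changed besides Ezh2 itself, and 14 of 16 tested did not pass, where 3.1% of all genes were called. It was 31.6, 26.0 and 33.9 CPM in WT, 17.0, 31.2 and 47.3 CPM in G12D, 92.2, 95.9 and 109 CPM in E2-KO, with 101 and 120.4 CPM in G12D/E2-KO. The groups did not overlap (log2 change 1.85, SE 0.173, edgeR adjusted p = 1.59e-09). In the other cells Bmi1 was 15.2 to 20.6 CPM without and 65.0 to 76.5 CPM with the deletion, and the change in marked cells minus that in other cells was -0.17 (SE 0.18, edgeR adjusted p = 0.889).

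**Figure D3:**
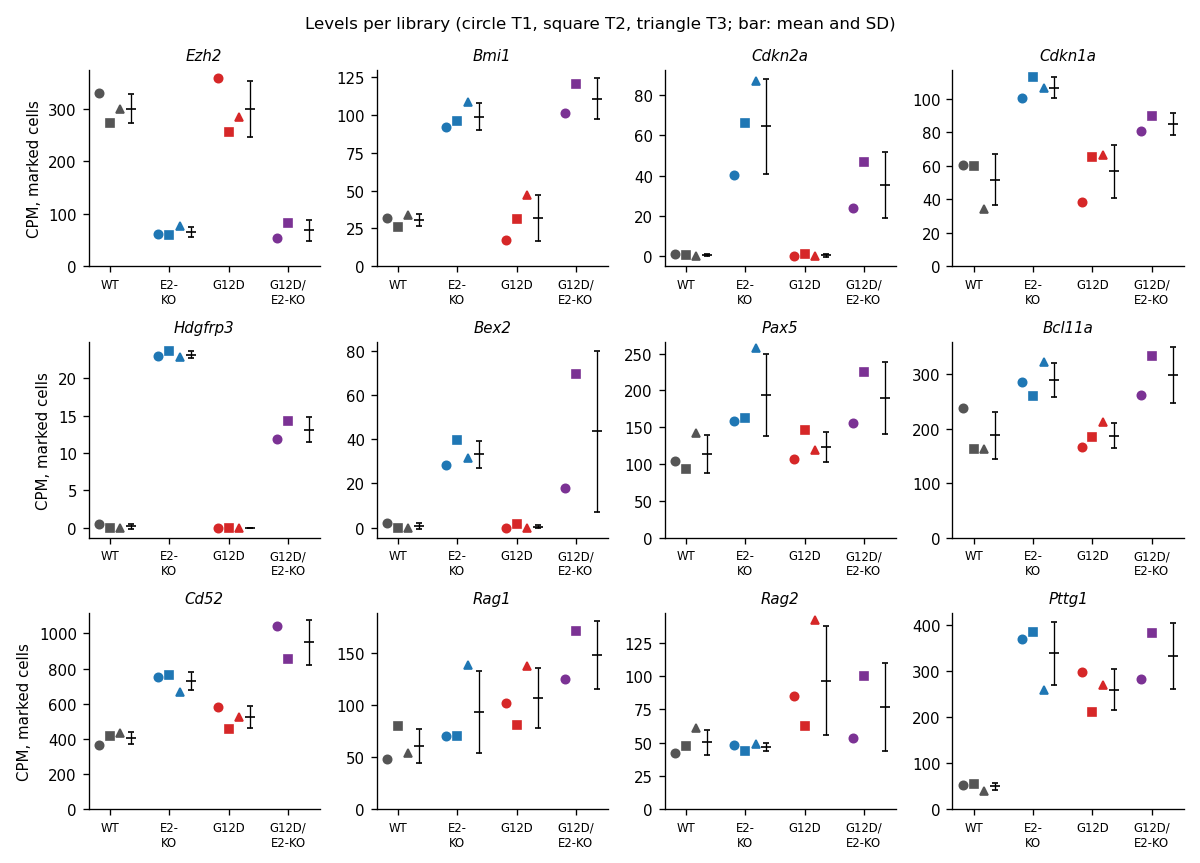
Level in the marked cells (y axis, CPM, linear) of 12 genes in each of the 11 libraries, by genotype, with the circle, square and triangle for T1, T2 and T3 and the bar for mean and SD (n = 3, and n = 2 for G12D/E2-KO). Cdkn2a is at most 1.42 CPM and Ezh2 at least 255 CPM without the deletion, and Pttg1 is at most 54.4 CPM in WT and at least 211 CPM in the other genotypes.

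Of 16 tested transcription factors of the B lineage, 3 rose, where 2.22% of all genes did, and none fell (median log2 change 0.15, against 0.01 over all genes). Pax5 was 105, 92.6 and 142 CPM in WT and 106, 146 and 118 CPM in G12D. It was 159, 163 and 257 CPM in E2-KO, with 155 and 225 CPM in G12D/E2-KO, with every value above those without the deletion (log2 change 0.85, SE 0.143, edgeR adjusted p = 0.000266). Bcl11a, a zinc finger factor needed for the lymphoid lineage, was 238, 163 and 163 CPM in WT and 166, 184 and 213 CPM in G12D. It was 286, 261 and 323 CPM in E2-KO, with 262 and 335 CPM in G12D/E2-KO, again without overlap (log2 change 0.73, SE 0.132, edgeR adjusted p = 0.000739). Myb, a progenitor factor, had a log2 difference of 0.43 (SE 0.126, edgeR adjusted p = 0.0480), and leaving out 1 library at a time ended this call in 9 of 11 fits.

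Of 8 tested genes of V(D)J recombination and end joining, 1 rose, 1 fell and 6 did not pass (median log2 change 0.04), where 3.1% of all genes were called. Rag1 was 48.1, 79.6 and 54.2 CPM in WT and 102, 80.7 and 137 CPM in G12D. It was 70.0, 70.7 and 138 CPM in E2-KO, with 125 and 171 CPM in G12D/E2-KO, values that overlapped (log2 change 0.64, SE 0.168, edgeR adjusted p = 0.0255). This call held in 4 of 11 fits with 1 library left out. Xrcc6, the Ku70 end-binding protein, fell by 0.63 (SE 0.179, edgeR adjusted p = 0.0475), which held in 4 of 11 such fits. Rag2 (0.06, SE 0.176) and Dntt (0.26, SE 0.124) were among those that did not pass.

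Il7r did not pass (log2 change 0.18, SE 0.160, edgeR adjusted p = 0.621), while 2 of 13 tested genes of its pathway were called higher, against 2.22% of all genes, both of them feedback inhibitors of cytokine signalling. The 13 had a median log2 change of 0.28, against 0.01 over all genes, with 11 above 0. Cish was 5.69, 1.63 and 6.78 CPM in WT and 8.51, 4.25 and 0 CPM in G12D, and it was 9.68, 11.2 and 22.1 CPM in E2-KO, with 23.9 and 14.3 CPM in G12D/E2-KO. Its lowest value with the deletion was above the highest without it, and the log2 change was 1.82 (SE 0.422, edgeR adjusted p = 0.0103). Socs2 rose by 0.77 (SE 0.207, edgeR adjusted p = 0.0288), a call that held in 5 of 11 fits with 1 library left out. Of 11 tested early lymphoid genes, Ly6d alone was called, where 2.22% of all genes were called higher. The 11 had a median log2 change of 0.50, against 0.01 over all genes, with 9 above 0. Ly6d was 246 to 587 CPM without and 474 to 933 CPM with the deletion (log2 change 0.99, SE 0.162, edgeR adjusted p = 0.00134). The members that did not pass included Flt3 at 0.52 (SE 0.304) and Kit at 0.43 (SE 0.217).

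Of the genes of the pre-B cell receptor and of later B cells, 1 of 9 tested in each list was called, where 3.1% of all genes were. Cd72, an inhibitory coreceptor, fell by 0.67 (SE 0.171, edgeR adjusted p = 0.0215) and was the receptor gene that passed, whereas Cd79b (0.14, SE 0.122) did not. The Cd72 call was lost with DESeq2 and with that average, and it held in 7 of 11 fits with 1 library left out. Cd52, a small surface glycoprotein of lymphocytes, was 365, 415 and 434 CPM in WT, 583, 459 and 525 CPM in G12D, 753, 763 and 669 CPM in E2-KO, with 1040 and 857 CPM in G12D/E2-KO. The groups with and without the deletion did not overlap (log2 change 0.97, SE 0.113, edgeR adjusted p = 3.39e-07), and the 9 later B cell genes had a median of -0.39. Ms4a1, the CD20 gene, had a log2 difference of -1.11 (SE 0.397) and Cd74, the invariant chain of class II antigen presentation, one of -1.33 (SE 0.721), neither of which passed.

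Of the cell cycle genes 1 was called, a share near the 3.1% over all genes. None of 16 mitosis genes passed (median log2 change -0.12, 4 of 16 above 0), and Mki67 was at 0.00 (SE 0.135). The 15 S phase genes had a median of 0.29, with 10 above 0, and the called member lay on the other side of 0. This was Tyms, the thymidylate synthase gene, which fell by 0.59 (SE 0.149, edgeR adjusted p = 0.0192), a call that held in 7 of 11 fits with 1 library left out and was lost without the time point block and with the tables as deposited. None of 9 tested genes of Ras feedback and none of 16 tested interferon response genes passed, where 3.1% of all genes did.

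The genes with the largest log2 rises included several at or near 0 without the deletion, and a ranking by log2 change favours such genes. Hdgfrp3 was 0.518, 0 and 0 CPM in WT and 0 CPM in the 3 G12D libraries, but it was 23.0, 23.7 and 22.8 CPM in E2-KO, with 11.9 and 14.3 CPM in G12D/E2-KO. This came to 151 against 1 UMI, a ratio of 98.4 (95% counting interval 17.4 to 3910). Pcp4, a calmodulin-binding peptide, came to 77 against 1 UMI, a ratio of 50.2 (counting interval 8.74 to 2010), and was 4.73 CPM in G12D T3 and 0 CPM in the other libraries without the deletion. Bex2 was at most 2.07 CPM without and 17.9 to 69.4 CPM with the deletion (log2 change 4.97, SE 0.434, edgeR adjusted p = 4.05e-10), and its family member Bex1 was 0 to 21.3 CPM against 35.8 to 66.9 CPM (log2 change 3.99, SE 0.476, edgeR adjusted p = 0.000362). Mlf1, Pbx3, Tmem132e, Lysmd2 and Pvrl3 rose as well, by 2.74 to 3.32 on the log2 scale. Hdgfrp3, Bex2, Bex1, Lysmd2 and Pbx3 passed in each of the 11 fits with 1 library left out, and Bex1 was not called with the tables as deposited. Pcp4, Mlf1 and Pvrl3 were tested in 6 of these 11 fits.

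Arf5, a small GTPase of membrane traffic, was among the genes that fell. It was 359.8, 358 and 373 CPM in WT and 341, 358 and 322 CPM in G12D. It was 147, 139.7 and 104 CPM in E2-KO, with 101 and 141 CPM in G12D/E2-KO (log2 change -1.38, SE 0.125, edgeR adjusted p = 7.8e-10). Fcrla, an Fc receptor-like protein of B cells, fell and was 10.4 to 54.2 CPM without and 1.47 to 11.9 CPM with the deletion (log2 change -2.20, SE 0.438, edgeR adjusted p = 0.00277), and this call was lost without WT T2 (adjusted p = 0.0542). Hmga1, a chromatin architectural protein, fell by 1.68 (SE 0.382, edgeR adjusted p = 0.0260) and held in 5 of 11 fits with 1 library left out. Ppbp, a platelet gene, was 67.8, 18.7 and 0 CPM in WT and at most 2.77 CPM in the other 8 libraries, and Car2, listed as erythroid, fell by 0.98 (SE 0.192, edgeR adjusted p = 0.0125). Car2 was the 1 called of 9 tested erythroid markers, 4 of which were above 0, where 0.885% of all genes were called lower, and its call was lost without WT T1, without G12D T3, with at least 4 markers and with the tables as deposited. In these libraries the 9 erythroid markers summed to 1503 to 11150 CPM without and 1079 to 9517 CPM with the deletion, and the 7 megakaryocyte markers to 0 to 936 and 8.94 to 155 CPM. Their part in the fall of Ppbp and Car2 was not tested.

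**Figure D4:**
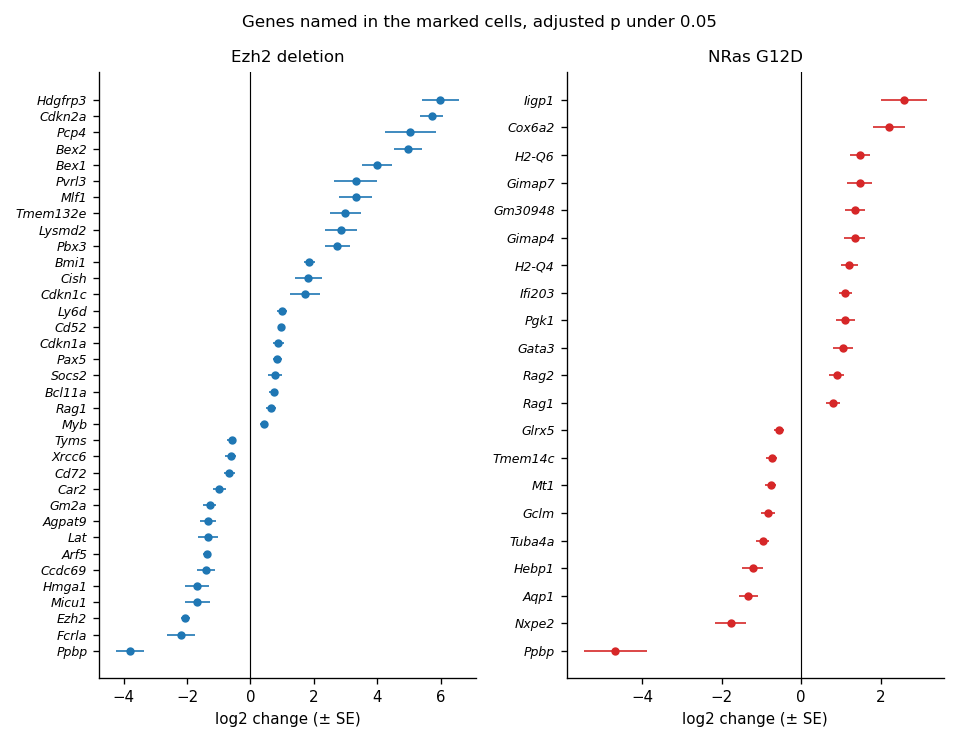
Log2 change with SE (x axis) of the named genes that passed an adjusted p of 0.05 in the marked cells, for Ezh2 deletion (left, 35 genes) and NRas G12D (right, 21 genes), from edgeR over 11 libraries. Hdgfrp3, Cdkn2a and Pcp4 lie farthest to the right for Ezh2 deletion, and Ppbp lies farthest to the left on both sides.

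In E2-KO against WT alone, 91 of 7573 genes passed (1.2%), of which 70 were higher (0.924%) and 21 lower (0.277%), while DESeq2 called 52. With 1 library left out the count fell to between 30 and 52 without WT T1, WT T2, E2-KO T1 or E2-KO T3, and it was 160 without either G12D/E2-KO library. These libraries are also part of the pooled contrast, so the values are given side by side and not as a repeat. Cdkn2a was 5.75 (SE 0.428), Bmi1 1.76 (SE 0.215), Pax5 0.87 (SE 0.190), Cd52 0.98 (SE 0.154) and Cdkn1a 0.99 (SE 0.202) on the log2 scale, all with edgeR adjusted p-values of 0.0118 or below. Pcp4, with 68 against 0 UMIs, was at least 12.5-fold higher (floor of 3 counts over the group). Ltf, Ly6g, Retnlg and Ifitm6, known from granulocytes, were lower, by 1.57 to 2.48 on the log2 scale. Of the 10 granulocyte markers of the list Ltf alone was called, 4 were above 0 and the median was -1.61. The 10 summed to 12780 to 21270 CPM in the marked cells of WT and 3087 to 13180 CPM in those of E2-KO, and the part of granulocyte RNA in these calls was not tested.

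Fewer genes were called for NRas G12D than for Ezh2 deletion. In the marked cells 37 of 7573 passed (0.489%), of which 28 were higher (0.370%) and 9 lower (0.119%). The count was 8 when a cell needed at least 4 markers, 5 without the time point block and 58 with DESeq2, and it was 21 without WT T1, 58 without WT T2, 23 without E2-KO T1, 67 without G12D T2 and 22 without G12D/E2-KO T1, so that the calls depend on these choices. All 11 libraries enter both this contrast and that of Ezh2 deletion, but their marked cells are split unevenly. With the mutation there were 205 marked cells in G12D and 230 in G12D/E2-KO, against 503 in WT and 1191 in E2-KO. For Ezh2 deletion the large E2-KO group stands against WT and G12D. The part of this depth in the lower number of calls was not tested, so the counts do not rank the sizes of the effects.

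The recombinase genes rose. Rag2 was 42.4, 47.1 and 61.0 CPM in WT and 47.9, 43.4 and 49.3 CPM in E2-KO. It was 85.1, 62.3 and 142 CPM in G12D and 53.7 and 100 CPM in G12D/E2-KO, values that overlapped in the G12D/E2-KO T1 library (log2 change 0.90, SE 0.187, edgeR adjusted p = 0.0138). Rag1, with the values given above, had a log2 difference of 0.81 (SE 0.176, edgeR adjusted p = 0.0206). Both calls were lost with at least 4 markers and without the time block, and they held in 8 (Rag2) and 5 (Rag1) of 11 fits with 1 library left out. Of 8 tested genes of V(D)J recombination and end joining 2 rose, where 0.370% of all genes did, and none fell, with a median log2 change of 0.45 against 0.01 over all genes. Il7r (0.54, SE 0.167, edgeR adjusted p = 0.157), Dntt (0.36, SE 0.126, edgeR adjusted p = 0.246) and Flt3 (1.07, SE 0.327, edgeR adjusted p = 0.148) did not pass.

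Ifi203, an interferon-induced gene, was among the 28 genes that rose. It was 117, 98.3 and 88.1 CPM in WT and 106, 116 and 193 CPM in E2-KO. It was 200.1, 152 and 393 CPM in G12D and 343 and 184 CPM in G12D/E2-KO (log2 change 1.11, SE 0.159, edgeR adjusted p = 0.000627). At every time point the libraries with the mutation were above those without it. The class I genes H2-Q6 and H2-Q4 rose by 1.48 (SE 0.255, edgeR adjusted p = 0.00426) and 1.22 (SE 0.216, edgeR adjusted p = 0.00285), and they are near copies of each other, so that reads between them may be split uncertainly. Ifi203, H2-Q6 and H2-Q4 were not called without the time point block. Iigp1, an interferon-induced GTPase, rose by 2.58 (SE 0.580, edgeR adjusted p = 0.0250) and held in 4 of 11 fits with 1 library left out. None of the 16 tested interferon response genes of the list passed, where 0.489% of all genes did, and 13 were above 0 with a median of 0.69 against 0.01 over all genes. For the effect in the marked cells minus that in the other cells, none of 20 tested members passed. Of these 8 were above 0, and the median was -0.149 against -0.0989 over all genes.

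The GTPases Gimap4 and Gimap7, known from lymphocyte survival, rose too. Gimap7 rose by 1.47 (SE 0.316, edgeR adjusted p = 0.0184), and its call held in 7 of 11 fits with 1 library left out and was lost with at least 4 markers and without the time point block. Gimap4 was 25.9, 32.5 and 13.6 CPM in WT, 17.1, 22.5 and 24.3 CPM in E2-KO, with 51.1, 35.4 and 56.8 CPM in G12D and 101 and 57.2 CPM in G12D/E2-KO. The groups did not overlap (log2 change 1.34, SE 0.256, edgeR adjusted p = 0.00884), but the call was lost without G12D/E2-KO T1 (adjusted p = 0.156) and with at least 4 markers. Gata3, a factor of T cells and other lymphocytes, rose by 1.05 (SE 0.25, edgeR adjusted p = 0.0394), and Cox6a2, a plasmacytoid dendritic marker, by 2.21 (SE 0.408, edgeR adjusted p = 0.00880). Of the 3 such markers tested Cox6a2 alone was called and alone was above 0, where 0.370% of all genes were called higher, and its call was lost with at least 4 markers, without the time point block, without G12D T3 and without G12D/E2-KO T1. The plasmacytoid dendritic markers summed to 119 to 468 CPM with and 40.7 to 560.8 CPM without the mutation. Gata3 held in 3 of 11 fits with 1 library left out.

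Aqp1, a water channel of red cells, was among the 9 genes that fell. It was 88.0, 49.6 and 61.0 CPM in WT, 49.8, 52.2 and 64.7 CPM in E2-KO, with 34.1, 31.2 and 18.9 CPM in G12D and 20.9 and 12.2 CPM in G12D/E2-KO. The groups did not overlap (log2 change -1.33, SE 0.242, edgeR adjusted p = 0.00335). Tuba4a fell by 0.97 (SE 0.157, edgeR adjusted p = 0.00118), Mt1, a metallothionein, by 0.77 (SE 0.134, edgeR adjusted p = 0.00270) and Hebp1, a heme-binding protein, by 1.22 (SE 0.267, edgeR adjusted p = 0.0206). The 9 erythroid markers, none of which passed, were all below 0 with a median of -1.07, and they summed to 1079 to 9030 CPM with and 2860 to 11150 CPM without the mutation. The part of erythroid RNA in these falls was not tested. Aqp1, Mt1 and Hebp1 were no longer called with at least 4 markers, nor Tuba4a and Hebp1 without the time point block.

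Nras itself, whose total level does not show the G12D base change, had a log2 difference of 0.38 (SE 0.176, edgeR adjusted p = 0.464). None of 9 tested Ras feedback genes passed, a count that the 0.489% over all genes does not set apart, among them Dusp6, the ERK phosphatase, at 0.68 (SE 0.354). Pax5 (0.22, SE 0.151), Mki67 (-0.07, SE 0.139) and Ezh2 (0.07, SE 0.145) did not pass either.

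The interaction, how far G12D/E2-KO departed from the added effects of E2-KO and G12D, passed for 8 of 7573 genes (0.106%), 4 higher and 4 lower (0.0528% each), and DESeq2 called 14. The count was 5 without G12D T2. Pttg1, securin, the inhibitor of separase, was 53.3, 54.4 and 40.7 CPM in WT, 370.5, 386 and 260.4 CPM in E2-KO, with 298, 211 and 269.8 CPM in G12D and 283 and 384 CPM in G12D/E2-KO. The 3 genotypes with Mx1-Cre thus shared a high level and WT stood alone (interaction -2.43, SE 0.298, edgeR adjusted p = 2.79e-05). The other cells had the same order, with 29.0 to 36.8 CPM in WT and 97.3 to 194 CPM elsewhere. Gdpd3 was at most 2.07 CPM in WT and 23.0 to 89.4 CPM in the other genotypes (interaction -3.37, SE 0.672, edgeR adjusted p = 0.0327), and Gm7102 was at most 1.55 CPM in WT and 22.5 to 56.6 CPM elsewhere (interaction -5.01, SE 0.676, edgeR adjusted p = 6.75e-05). The Gdpd3 call held in 5 of 11 fits with 1 library left out. For these 3 genes the alleles and Cre cannot be told apart.

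The 4 genes with a positive interaction were Ifitm6 (4.24), Ltf (3.10), Chil3 (2.76) and Wfdc21 (2.55), all of them known from granulocytes. Of the 10 granulocyte markers of the list Ltf alone was called, where 0.0528% of all genes were called higher. The 10 had a median of 2.52, with 7 above 0. The Chil3 and Wfdc21 calls held in 7 and 8 of 11 fits with 1 library left out, and all 4 were lost without the time point block. Ltf, lactoferrin, was 188, 83.7 and 210.2 CPM in WT, 85.7, 22.9 and 35.3 CPM in E2-KO, with 140.5, 45.3 and 71.0 CPM in G12D and 250.4 and 169 CPM in G12D/E2-KO. In the other cells it was 353 to 1441 CPM. The 10 granulocyte markers summed to 13700 and 30200 CPM in the marked cells of G12D/E2-KO, the latter being the highest of the 11 libraries. Without the cells with T and NK or plasmacytoid dendritic markers the interaction count was 4, with 1 higher and 3 lower. In that setting 1 of the 4 positive calls thus stayed. Without the cells with high Jchain the count was 4, with 2 higher and 2 lower.

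Whether an effect differed between the marked cells and the other cells of the same libraries was tested directly. For Ezh2 deletion 118 of 12724 genes passed (0.927%), 72 with a higher effect in the marked cells (0.566%) and 46 with a lower one (0.362%). DESeq2 called 13, of which 7 were higher and 6 lower, and the count was 55 without WT T1 and 60 without E2-KO T1. In this fit edgeR took the spread mostly from all genes together, so that a small p says little about the spread of a single gene between libraries. Cd52 was 365 to 583 CPM without and 669 to 1040 CPM with the deletion in the marked cells, against 494 to 964 and 284 to 1240 CPM in the other cells. The difference of effects was 1.33 (SE 0.115, edgeR adjusted p = 4.64e-25). Id1, an inhibitor of E proteins, was 0 to 9.47 CPM without and 17.9 to 38.8 CPM with the deletion in the marked cells, while the other cells held 25.6 to 42.9 and 23.1 to 59.8 CPM (difference 2.44, SE 0.293, edgeR adjusted p = 2.45e-13). In summed counts the effects on both genes were thus higher in the marked cells than in the other cells. Both genes also passed with DESeq2, whereas Cd52 was not called without the time point block or with the tables as deposited. The other cells are a mixture, and their 10 granulocyte markers summed to 119400 to 129100 CPM in WT and 50940 to 66600 CPM in E2-KO. The sums were 118700 to 125900 CPM in G12D and 150700 and 87680 CPM in G12D/E2-KO at T1 and T2. The part of this mixture in the differences of effects was not tested.

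Bcl11a also had a higher effect in the marked cells (difference 0.72, SE 0.120, edgeR adjusted p = 2.25e-06), and it was 70.4 to 128 CPM without and 66.3 to 119 CPM with the deletion in the other cells. For Hdgfrp3 the difference was 4.53 (SE 0.881, edgeR adjusted p = 0.000137), and in the other cells it was already 1.13 to 2.62 CPM without and 4.97 to 9.90 CPM with the deletion. Of the lower effects, Rras2, a RAS-related GTPase, was 52.0 to 99.4 and 17.9 to 145 CPM in the marked cells, but 1.47 to 2.68 and 5.15 to 5.77 CPM in the other cells (difference -1.25, SE 0.205, edgeR adjusted p = 1.35e-06). This difference came with a rise in the other cells and overlapping values in the marked cells. With DESeq2 Bcl11a passed, but Hdgfrp3 and Rras2 did not. Ezh2 (-0.07, SE 0.138), Bmi1, Cdkn2a (0.95, SE 1.47) and Pax5 (-0.34, SE 0.333) did not pass, so that no difference of their log2 changes from those in other cells was shown. A p that misses the threshold does not show that they were alike. With the deletion Cdkn2a was 23.9 to 86.8 CPM in the marked cells and 1.62 to 6.61 CPM in the other cells. Without it the gene was near 0 in both, so that its log2 changes are poorly set.

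**Figure D5:**
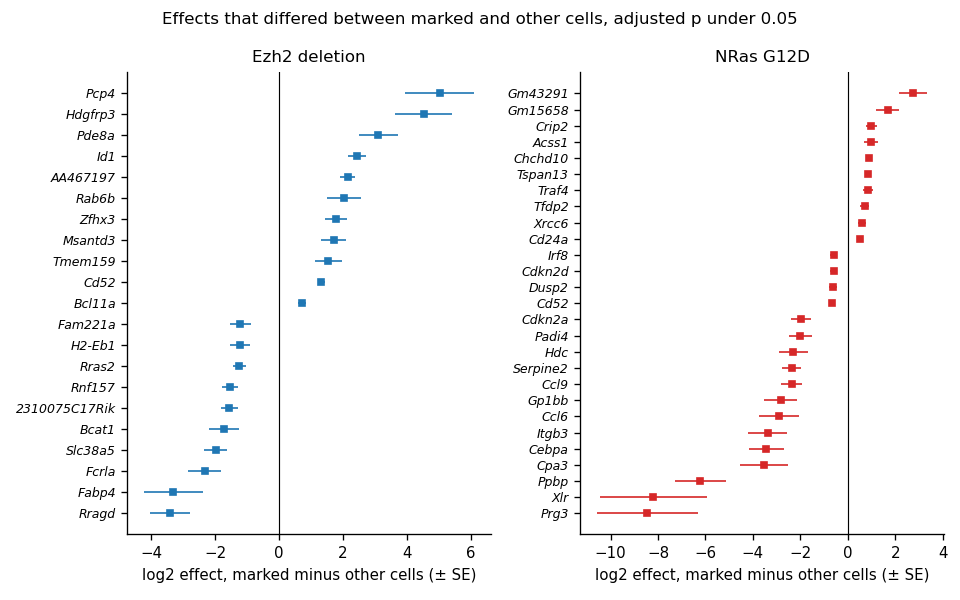
Effect in the marked cells minus that in the other cells of the same libraries (x axis, log2, with SE) for the named genes that passed an adjusted p of 0.05, for Ezh2 deletion (left, 21 genes) and NRas G12D (right, 27 genes). Most points for NRas G12D lie left of 0, among them Prg3 and Xlr with the widest errors, and Pcp4 and Hdgfrp3 lie farthest right for Ezh2 deletion.

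For NRas G12D 132 of 12724 genes passed (1.04%), 17 with a higher effect in the marked cells (0.134%) and 115 with a lower one (0.904%). With DESeq2 size factors the split was 22 and 61, and DESeq2 itself called 17, 4 higher and 13 lower. The count was 83 without WT T1, 67 without E2-KO T1 and 43 without G12D/E2-KO T1. The fits of these differences tested more genes than the 7573 of the marked cells alone, so that some passed the filter on low counts only through the other cells. Of the 6 basophil and mast cell markers, 0 were tested in the marked cells alone and 6 here. For a gene near 0 in the marked cells, a lower effect does not show a fall in them. Chchd10, a mitochondrial protein, was 1593 to 2058 CPM without and 1839 to 2040 CPM with the mutation in the marked cells, against 140.5 to 209 and 82.4 to 156 CPM in the other cells (difference 0.87, SE 0.110, edgeR adjusted p = 3.59e-11). Tspan13 had a difference of 0.84 (SE 0.115, edgeR adjusted p = 1.4e-09), and Cd24a, a surface protein high in B cell precursors, one of 0.50 (SE 0.111, edgeR adjusted p = 0.00186). Tspan13 was 291 to 493 CPM without and 391 to 790.5 CPM with the mutation in the marked cells, and 82.8 to 112 and 52.0 to 90.1 CPM in the other cells.

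Cdkn2a had a lower effect of NRas G12D in the marked cells (difference -1.98, SE 0.428, edgeR adjusted p = 0.00157). With Ezh2 deleted it was 40.1, 66.2 and 86.8 CPM in E2-KO, with 23.9 and 46.9 CPM in G12D/E2-KO in the marked cells, against 1.72, 1.62 and 3.64 CPM and 6.61 and 2.49 CPM in the other cells. At T1 and T2 the mutation thus went with a lower level in the marked cells and a higher one in the others. The call was lost without E2-KO T1 and without G12D/E2-KO T1, with adjusted p-values of up to 0.575. Cdkn2d, another kinase inhibitor, had a difference of -0.60 (SE 0.131, edgeR adjusted p = 0.00166), Irf8, a factor of B cells and monocytes, one of -0.59 (SE 0.148, edgeR adjusted p = 0.0126) and Cd52 one of -0.66 (SE 0.117, edgeR adjusted p = 1.78e-05). These 3 calls were lost with DESeq2 and without the time point block, and with 1 library left out Cdkn2d and Cd52 held in 9 of 11 fits and Irf8 in 6. Cebpa, a myeloid factor, was 0 to 15.4 CPM without and 0 to 4.73 CPM with the mutation in the marked cells, and 17.5 to 22.7 and 25.3 to 41.5 CPM in the other cells (difference -3.44, SE 0.747, edgeR adjusted p = 0.00159).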

How the data were processed

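Single-cell transcriptomes of c-Kit+ bone marrow cells from 12 libraries were analysed. The authors aligned each library to mm10 with Cell Ranger, excluded cells with a high mitochondrial share and doublets found by Scrublet, and deposited UMI counts per gene and cell. No further doublet caller was run. Of 35597 cells deposited, 2896 of G12D T1 with a cosine above 0.9 to a G12D/E2-KO T1 cell (genes ranked after the top 300, next 8000 genes) were dropped. Marked cells were defined by 3 or more of 7 genes, and libraries with under 20 such cells took no part in expression tests. The members, the gene lists and the rule for named genes (up to 10 called genes in each direction by size of change with 1 sign at every time point, every called listed gene and 25 fixed genes) were chosen with earlier results of these data known.

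UMIs were summed per library and tested with edgeR 4.0.16 (R 4.3.3, TMM, filterByExpr, glmQLFit robust, glmQLFTest) with time point, Ezh2 and NRas as terms, or with genotype for E2-KO against WT and the interaction. Marked and other cells were compared with the library as a block. The 7 marker genes were not tested. A few named genes are not reported here. P-values were two-sided and Benjamini-Hochberg adjusted over all genes, with a threshold of 0.05. Shares were compared on log2(share + 0.01 percentage point) by exact sign-flip tests over pairs. CPM was UMIs over all UMIs of the cells summed, and thinning kept 1400 UMIs per cell. Intervals, exact Clopper-Pearson at 95%, and floors of 3 counts cover counting error only. The time points pair the libraries by design, and same-time libraries correlated in their deviations at r of -0.148 to 0.143 (median 0.0586, 15 pairs). The edgeR step, tested on simulated data for the Ezh2 comparison with 7129 genes, recovered 95% of 100 genes changed by 1 on the log2 scale and 100% of 100 changed by 2, with 10 false calls of 205. The changed genes were drawn only from those above a set level, and no time effect was simulated. These shares therefore do not hold for genes of lower level. Alternatives were DESeq2 1.42.0, its size factors, no filter on low counts, 2 or 4 markers, the tables as deposited, no block, effects averaged over a genotype model, leaving out each library, and leaving out cells with T and NK, plasmacytoid dendritic or Jchain signal. Sequences were taken from RefSeq and gene positions from GENCODE on GRCm38 (Python 3.11.15).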

Additional observations from a re-analysis of the deposited data

Results flagged for a closer look

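Effects that differed between groups by a direct test are listed here, without explanation. The effect of both changes together departed from the sum of the single effects (edgeR interaction, log2) for Ifitm6 (4.24), Ltf (3.10), Chil3 (2.76), Wfdc21 (2.55), Tpm3-rs7 (-6.69), Gm7102 (-5.01), Gdpd3 (-3.37) and Pttg1 (-2.43). Tpm3-rs7 was 15.0, 9.75 and 33.9 CPM in WT, 97.2, 123 and 16.2 CPM in E2-KO, 104 to 205 CPM in G12D and 5.96 and 18.4 CPM in G12D/E2-KO, and 5 of 11 fits with 1 library left out kept its call, as did 5 for Gdpd3, 7 for Chil3 and 8 for Wfdc21. Pttg1, Ltf, Ifitm6 and Gm7102 kept theirs in all 11.

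The effect of Ezh2 deletion was higher in the marked cells than in the other cells (log2 difference of effects, edgeR) for Pcp4 (5.03), Hdgfrp3 (4.53), Pde8a (3.11), Id1 (2.44), AA467197 (2.15), Rab6b (2.03), Zfhx3 (1.78), Msantd3 (1.71), Tmem159 (1.55), Cd52 (1.33) and Bcl11a (0.72). It was lower for Rragd (-3.42), Fabp4 (-3.30), Fcrla (-2.32), Slc38a5 (-1.97), Bcat1 (-1.73), 2310075C17Rik (-1.55), Rnf157 (-1.53), Rras2 (-1.25), H2-Eb1 (-1.21) and Fam221a (-1.21). Pcp4 and Hdgfrp3 had 1 UMI in all marked cells without the deletion, so their fitted values depend on the prior count and are no bounds. With 1 library left out, Rab6b and Fam221a kept their calls in 3 of 11 fits, Tmem159 and Bcat1 in 4 and Fabp4 and H2-Eb1 in 5, and the others in 10 or 11. Fabp4 then ran from -4.64 to -0.30 and had 49 of its 55 UMIs in the marked cells of WT T1.

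The effect of NRas G12D was higher in the marked cells for Gm43291 (2.75), Gm15658 (1.68), Crip2 (0.99), Acss1 (0.97), Chchd10 (0.87), Tspan13 (0.84), Traf4 (0.84), Tfdp2 (0.70), Xrcc6 (0.58) and Cd24a (0.50). The effect was lower for Prg3 (-8.45), Xlr (-8.20), Ppbp (-6.23), Cpa3 (-3.54), Cebpa (-3.44), Itgb3 (-3.39), Ccl6 (-2.90), Gp1bb (-2.83), Ccl9 (-2.37), Serpine2 (-2.37), Hdc (-2.29), Padi4 (-2.0), Cdkn2a (-1.98), Cd52 (-0.66), Dusp2 (-0.61), Cdkn2d (-0.60) and Irf8 (-0.59). Prg3 and Xlr had no UMI in the marked cells of the 5 libraries with the mutation, so that their fitted values are no bounds either, and both were 1.36 to 12.3 CPM in the other cells of those libraries. For any gene near 0 in the marked cells, a lower effect does not show a fall in them. With 1 library left out, Acss1 and Hdc kept their calls in 3 of 11 fits, Cpa3, Ccl6, Dusp2 and Xrcc6 in 4, Tfdp2 and Xlr in 5, Gm15658 and Irf8 in 6 and Traf4 in 7, and the others in 9 to 11. Ppbp then ran from -11.91 to -2.35, Gp1bb from -8.98 to -2.05 and Cpa3 from -8.42 to -3.04. Gm43291 was called in 2 and Ccl6 in 1 of 7 other settings.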

How the results depend on the processing

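The mean effect of Ezh2 deletion on the share changed sign with at least 2 markers (0.26), a pseudocount of 0.1 percentage point (0.22) and without G12D or G12D/E2-KO T3 (1.15). Leaving out each library in turn gave -1.12 to 1.15 for Ezh2 deletion, -3.72 to -1.45 for NRas G12D and -6.35 to -0.60 for the interaction. It gave 77 to 366 genes for Ezh2 deletion, 21 to 67 for NRas G12D, 30 to 160 for E2-KO against WT, 5 to 10 for the interaction, and 55 to 115 and 43 to 149 for the differences between marked and other cells under Ezh2 deletion and NRas G12D. DESeq2 gave 142 for Ezh2 deletion, 58 for NRas G12D, 52 for E2-KO against WT, 14 for the interaction, and 13 and 17 for the differences under Ezh2 deletion and NRas G12D. With no filter on low counts the first 4 of these were 447, 124, 226 and 26. The tables as deposited gave 138 (Ezh2 deletion), 81 (NRas G12D) and 61 (Ezh2 difference), and DESeq2 size factors gave 83 (NRas difference). At least 4 markers, which leaves out the cells with 3, gave 207 for Ezh2 deletion, 160 of them among the 235 of the main fit. It gave 8 for NRas G12D (8 among the 37), 88 for E2-KO against WT (65 among the 91) and 11 for the interaction (7 among the 8). For the differences it gave 102 under Ezh2 deletion (69 among the 118) and 101 under NRas G12D (81 among the 132). The interaction count was 4 (1 higher and 3 lower) without cells with T, NK or plasmacytoid markers. It was 4 (2 higher and 2 lower) without cells with 20 or more Jchain UMIs, a setting chosen after seeing the data. The causes were not tested.

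Without the time point block, which pairs libraries, the counts were 152 for Ezh2 deletion, 5 for NRas G12D, 66 for E2-KO against WT, 3 for the interaction, and 60 and 42 for the differences under Ezh2 deletion and NRas G12D, and the shares, by an exact permutation test over 12 libraries chosen after seeing the data, kept their means (-0.29, p = 0.937, and -2.94, p = 0.0368, adjusted p = 0.0736). The number of marked cells, 22 to 466 per library with any, limits the depth.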
